A study of Homo sapiens with 12 samples.

Results

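The baseline transcriptome of HMC3 cells was described from the 3 Ctrl libraries of a series of 12. The cells, immortalized and of human brain, carry the label microglia. The members were chosen by their label alone, and no group was compared with another. TPM (a level that allows for transcript length and sums to the same total in each library) were summed over the transcripts of each gene and averaged over the 3 libraries, and 36315 genes, 19903 of them protein-coding, were ranked by this mean. The Ctrl cells had negative control siRNA with the RNAiMAX reagent for 48 h, followed by 24 h of Ctrl-Fc at 2 µg/mL that had been clustered with goat anti-human IgG for 1 h on ice. The other 9 libraries came from cells given EphB2-Fc, siRNA against ephrin-B1, or both together, and were not analysed here. Baseline therefore means cells that carry siRNA, transfection reagent and clustered Fc protein, and no untreated cells were among the groups.

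Microglia are the resident macrophages of the brain. They depend on the transcription factors PU.1 (SPI1) and IRF8 and on the receptor CSF1R, and their usual markers are the surface receptors P2RY12, CX3CR1 and TREM2 with its adaptor TYROBP, the complement subunits C1QA to C1QC, and IBA1 (AIF1). Mesenchymal cells such as fibroblasts and pericytes are instead known for fibrillar collagens, fibronectin, vimentin and PDGFRB. Ephrins are membrane-bound ligands of the Eph receptor tyrosine kinases, and both sides of the contact can signal.

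The 3 libraries held 13810195, 21035350 and 20493281 estimated counts in replicates 1, 2 and 3, and transcripts paired with a gene took 95.43% to 95.96% of them. Pearson's r of log2(TPM + 1) over the 14607 genes at a mean of 1 TPM or more was 0.96 between replicates 1 and 2, 0.97 between 1 and 3 and 0.98 between 2 and 3. These are correlations across genes of libraries made the same way, and genes are not independent replicates. The study calls these libraries biological replicates. None of the values below has a test, and each SD is over the 3 libraries.

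In the TPM of these libraries the leading entry was not an mRNA. A transcript of 152 bases, annotated as a pseudogene of 5.8S rRNA, held 23.0%, 28.4% and 35.2% of all TPM in replicates 1, 2 and 3. The same transcript held 0.379%, 0.568% and 0.675% of the estimated counts. Its effective length, by which kallisto divides the counts, was 20.8 to 24.2 bases, so each count weighed far more than a count of a long mRNA. Of its 122 stretches of 31 bases, 31 were identical with 5.8S rRNA, a small RNA of the large ribosomal subunit. These stretches together form a run of 61 bases of RNA5-8SN1, which is shown because it is the sequence that the leading entry and the rRNA have in common, read from GRCh38 on the plus strand.
5.8S rRNA run shared with the pseudogene transcript, chr21:8439879-8439939: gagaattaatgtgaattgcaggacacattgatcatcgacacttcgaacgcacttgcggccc

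Other entries classed with it were an unnamed pseudogene and ANKRD30BL. The unnamed pseudogene overlaps a RefSeq pseudogene of 18S rRNA and shared 33 of its 1818 stretches with 18S rRNA. The gene of ANKRD30BL (chromosome 2, 132147591 to 132257969, GRCh38) spans RefSeq pseudogenes of 18S and 5.8S rRNA. It was classed by this position and its level, and stretches shared with rRNA are not shown for it. ANKRD30BL was listed at 5185, 7519 and 7307 TPM in replicates 1, 2 and 3, none of it in a transcript annotated as protein-coding. Together with the 495 annotated rRNA pseudogenes these are called rRNA-like here. The 497 rRNA-like genes held 30.4% ± 6.23 (SD, n = 3) of the TPM and between 1.95% and 2.83% of the counts. They were lowest in replicate 1 (24.5%) and highest in replicate 3 (36.9%), which lowers the TPM of every other gene in replicate 3. The median gene at 10 TPM or more was 0.32 higher on the log2 scale in replicate 1 than in replicate 3, and 0.06 higher once TPM were scaled without the rRNA-like genes.

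**Figure D1:**
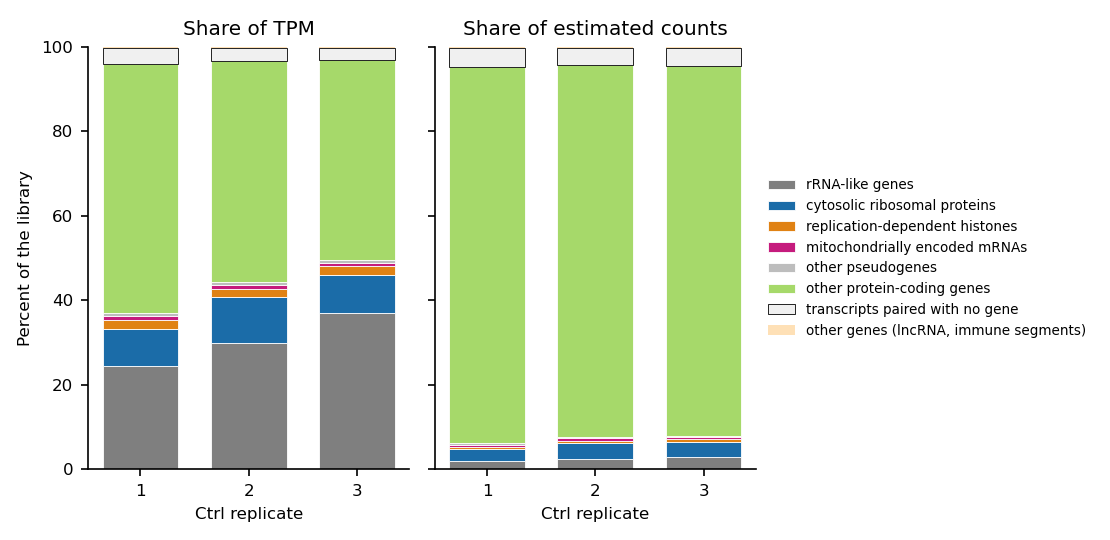
Share of each Ctrl library (percent, stacked bars) held by gene classes, by TPM at the left and by estimated counts at the right, for replicates 1 to 3. The rRNA-like genes grow from 24.5% to 36.9% of TPM between replicates 1 and 3 and hold between 1.95% and 2.83% of the counts, while other protein-coding genes hold 47.4% to 58.9% of TPM and 87.6% to 89.0% of the counts.

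Of the 19903 protein-coding genes, 13047 (65.6%) reached a mean of 1 TPM, 8702 reached 10 TPM, 1105 reached 100 TPM and 77 reached 1000 TPM. No count was assigned to 2031 (10.2%) in any of the 3 libraries. For a gene with an effective length of 2000 bases, a floor of 3 counts in a library corresponds to 0.143, 0.0862 and 0.0795 TPM in replicates 1, 2 and 3, so a listing at 0 means a level below about this size. Cytosolic ribosomal protein genes (86) held 9.55% ± 1.05 (SD, n = 3) of the TPM, replication-dependent histone genes (69) held 2.05% ± 0.0797 and the 13 mitochondrially encoded mRNAs held 0.798% ± 0.0583.

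Below ANKRD30BL, the highest protein-coding gene was ACTG1, which encodes cytoplasmic gamma-actin, at 6148, 7080 and 5352 TPM in replicates 1, 2 and 3, with a mean of 6193 ± 865 (SD, n = 3). TMSB10, an actin monomer-binding thymosin, followed at 4913 ± 431 TPM, and the glycolytic enzyme GAPDH at 4528 ± 437 TPM. The levels of TMSB10, RPS21 (4831 ± 674 TPM) and GAPDH differed by less than their spread. EEF1A1, the translation elongation factor, was at 3513 ± 629 TPM, the histone gene H4C11 at 2615 ± 54.1 TPM and MT-CO1, a subunit of cytochrome c oxidase, at 2492 ± 254 TPM. H4C11 belongs to a family of near-identical genes, so its share among them is uncertain. Of the 30 highest protein-coding genes without ANKRD30BL, 17 encoded ribosomal proteins.

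The machinery of glycolysis, actin and division was present throughout. All 18 glycolysis genes were at 1 TPM or more, 14 of them at 100 TPM or more, led after GAPDH by ENO1 (2008 ± 179 TPM), TPI1 (1950 ± 422 TPM) and LDHA (1895 ± 184 TPM), which makes lactate. All 26 actin cytoskeleton genes passed 1 TPM, with a median of 373 TPM. ACTB, the beta-actin gene used as a reference in quantitative PCR, was listed at 1246, 1176 and 1029 TPM, but a transcript paired with no gene had the same length and the same TPM in every library as its main transcript, and with it the mean was 2230 TPM instead of 1151. The 16 proliferation genes all passed 10 TPM, among them PCNA (282 ± 59.96 TPM), the topoisomerase TOP2A (234 ± 27.6 TPM), CCNB1 (214 ± 18.4 TPM) and MKI67 (84.9 ± 3.43 TPM). Over all protein-coding genes the median was 6.26 TPM. Ferritin, the iron store, was high in both chains, with FTL at 1747 ± 333 TPM and FTH1 at 1404 ± 241 TPM.

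The labelled cell type was checked against markers of microglia and macrophages, and most of them were near 0. Of 30 marker genes, 9 reached 1 TPM, against 65.6% of all protein-coding genes. CX3CR1, TYROBP, IRF8, C1QA, C1QB and C1QC had no count in any library. SPI1, which encodes the lineage factor PU.1, had 1, 0 and 0 counts in replicates 1, 2 and 3. P2RY12, the purinergic receptor of resting microglia, had 0, 6 and 2 counts, and TREM2, a lipid-sensing receptor, had 7, 7 and 8 counts, or 0.662 ± 0.212 TPM. AIF1 (IBA1) was listed at 0.0761 TPM, and at 0.350 TPM with 8 transcripts that were paired with no gene and had the length and TPM of its transcripts. AIF1 lies in the major histocompatibility complex, whose alternate copies divide counts.

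CD68, a lysosomal protein found in many cell types, was at 23.5, 21.9 and 18.9 TPM. CD14, the co-receptor for bacterial lipopolysaccharide, was at 7.81, 1.21 and 4.58 TPM, so its highest library was well above its lowest. For 3 further markers the level lay mainly in transcripts that are not annotated as protein-coding. CD163, a scavenger receptor of macrophages, was at 4.28 ± 2.05 TPM, all of it in a transcript of 496 bases without a defined coding sequence, and its coding transcripts were at 0. CSF1R was at 2.27 ± 0.310 TPM, of which 24.2% lay in coding transcripts, and MERTK at 2.16 ± 0.728 TPM with 44.6% there. TMEM119, a microglial surface protein, was at 0.885 ± 0.135 TPM, of which 0.0755 TPM came from its transcript of 2662 bases and the rest from 1 of 567 bases. Counted in coding transcripts only, 5 of the 30 markers reached 1 TPM, against 12158 of all 19903 protein-coding genes.

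**Figure D2:**
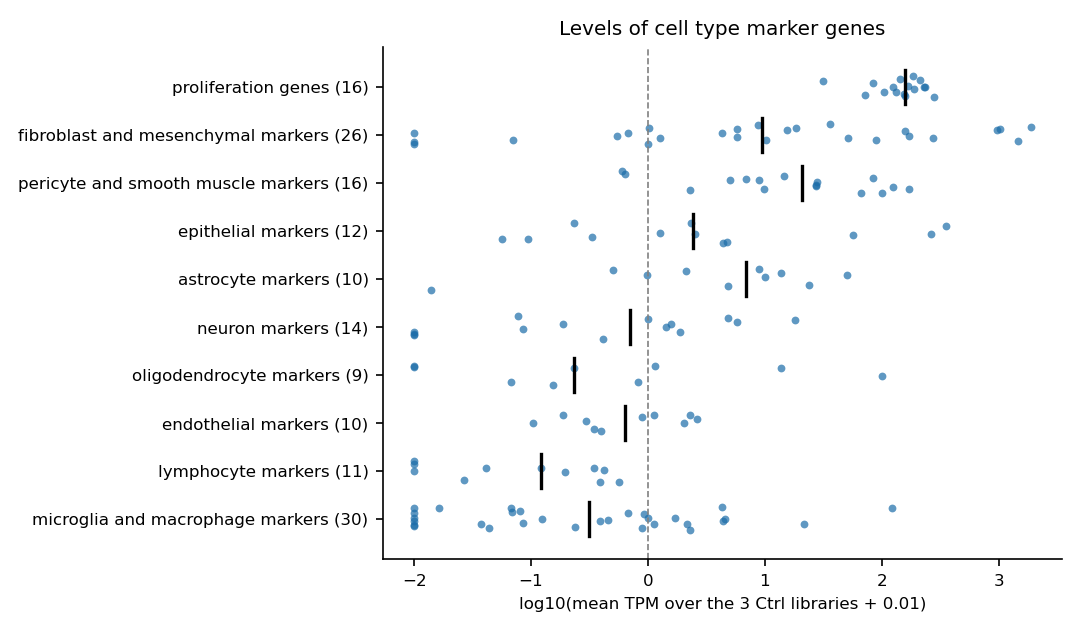
Mean TPM of each marker gene over the 3 Ctrl libraries on a log10 scale with 0.01 added, 1 point per gene, in rows by list with the number of genes in brackets. Black bars are medians and the dashed line is 1 TPM: the median lies at 157 TPM for proliferation genes, 20.9 TPM for pericyte and smooth muscle markers and 9.45 TPM for fibroblast and mesenchymal markers, and at 0.306 TPM for microglia and macrophage markers.

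Several mesenchymal and pericyte markers were among the abundant mRNAs. Of 26 fibroblast and mesenchymal markers, 19 (73.1%) reached 1 TPM and 13 (50%) reached 10 TPM, which are shares near those of all protein-coding genes (65.6% and 43.7%). FN1, which encodes the matrix protein fibronectin, was at 1260.5 TPM in replicate 1, 2661 TPM in replicate 2 and 1767 TPM in replicate 3. The order of FN1 was the opposite of that of SPARC, a collagen-binding matricellular protein, at 1349, 689 and 848 TPM. VIM, the intermediate filament vimentin, was at 1455 ± 187 TPM (SD, n = 3) and COL1A1, the alpha-1 chain of collagen I, at 1026 ± 66.9 TPM. The partner chain COL1A2 was at 15.3 TPM, and COL3A1, the small proteoglycan LUM and the mesenchymal transcription factor PRRX1 had no counts. THY1, a surface protein of fibroblasts, was at 366, 222 and 240 TPM. The list was thus high in some of its classical members and empty in others.

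Of 16 pericyte and smooth muscle markers, 14 (87.5%) reached 1 TPM, against 65.6% of all protein-coding genes. PDGFRB, the PDGF receptor of pericytes, was at 128, 80.0 and 91.8 TPM, MCAM (CD146) at 84.7 ± 26.0 TPM and CSPG4 (NG2) at 27.6 ± 12.1 TPM. The contractile genes CALD1 (171 ± 28.8 TPM) and TAGLN (124 ± 10.1 TPM) were higher than ACTA2, smooth muscle actin, at 14.7 ± 5.77 TPM. RGS5 was listed at 4.99 TPM with 11.9% in coding transcripts, and ABCC9 and DES were below 1 TPM.

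Markers of other lineages were present in part, and in bulk RNA fewer cells of a type and less RNA per cell cannot be told apart. Of all protein-coding genes 65.6% reached 1 TPM. The share was 70% for astrocyte markers, near that value. It was lower for neuron (42.9%), endothelial (40%) and oligodendrocyte (33.3%) markers. The keratins of simple epithelia KRT18 (309, 406 and 340 TPM) and KRT7 (261 ± 21.1 TPM) were high, with KRT8 at 57.0 ± 14.8 TPM, while the epithelial adhesion genes CDH1 (9.34, 2.47 and 2.49 TPM) and EPCAM (4.73, 1.09 and 1.10 TPM) were low and highest in replicate 1. Among 10 astrocyte markers 7 reached 1 TPM, with the gap junction gene GJA1 at 50.3 ± 4.74 TPM and SOX9 at 13.9 ± 1.71 TPM. GFAP was listed at 10.1 ± 1.13 TPM, of which 6.55 TPM lay in a transcript of 370 bases. Of 9 oligodendrocyte markers 3 reached 1 TPM, and OLIG1 and OLIG2 had no counts. CNP, which many cell types use, was at 101 ± 27.3 TPM, and MBP at 13.7 ± 10.2 TPM. Of 14 neuron markers 6 reached 1 TPM, led by the tubulin TUBB3 at 18.2 ± 4.08 TPM, and STMN2, NEFL and ELAVL4 had no counts. Of 10 endothelial markers 4 reached 1 TPM, the highest being ESAM at 2.60 ± 1.49 TPM. None of 11 lymphocyte markers reached 1 TPM in the mean, and CD3D, CD2 and MS4A1 had no counts.

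Transcription factors that mark lineages included the Hippo pathway co-activator YAP1 (104 ± 12.6 TPM) with its partner TEAD1 (90.4 ± 12.5 TPM). Their ranges of mean ± SD overlapped. FOXD1, a forkhead factor of renal stroma and other mesenchyme, was at 60.6, 108 and 73.2 TPM, RUNX1 at 48.4 ± 6.33 TPM and TWIST1, a factor of mesenchymal cells, at 18.6 ± 2.33 TPM. Of 58 such genes 36 (62.1%) reached 1 TPM, close to the share of all protein-coding genes. Besides SPI1 and IRF8, SALL1, a factor of microglia, was low, at 0.0274 TPM.

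The HOX genes, which lie in 4 chromosomal clusters and record position along the body axis during development, were unequal between clusters. The HOXB genes summed to 114, 56.1 and 68.9 TPM in replicates 1, 2 and 3, the HOXC genes to 15.7, 2.18 and 5.43 TPM, the HOXD genes to 7.29, 3.22 and 3.15 TPM, and the HOXA genes to 0.963, 0.147 and 0.594 TPM. HOXB was thus the highest cluster and HOXA the lowest in each library. Of the 10 HOXB genes 8 reached 1 TPM in the mean, a continuous run from HOXB2 to HOXB9. HOXB3 was at 19.9 ± 5.49 TPM and HOXB2 at 15.1 ± 2.90 TPM, while HOXB8 (3.09 ± 2.66 TPM) and HOXB9 (5.47 ± 4.13 TPM) had a wide spread. Over the 4 clusters 11 HOX genes reached a mean of 1 TPM, and 8 of them did so in each library. HOXB1 had no counts and HOXB13 was at 0.884 TPM. None of the 11 HOXA genes reached 1 TPM, and HOXA2, HOXA3, HOXA4, HOXA7 and HOXA9 had no counts. HOXC6 (7.03, 1.21 and 2.22 TPM), HOXC8 (2.88, 0.314 and 1.26 TPM) and HOXD4 (2.38, 0.277 and 0.470 TPM) were the 3 others at a mean of 1 TPM, and each was highest in replicate 1. Without replicate 1 the mean of HOXC8 was 0.785 TPM and that of HOXD4 0.374 TPM.

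**Figure D3:**
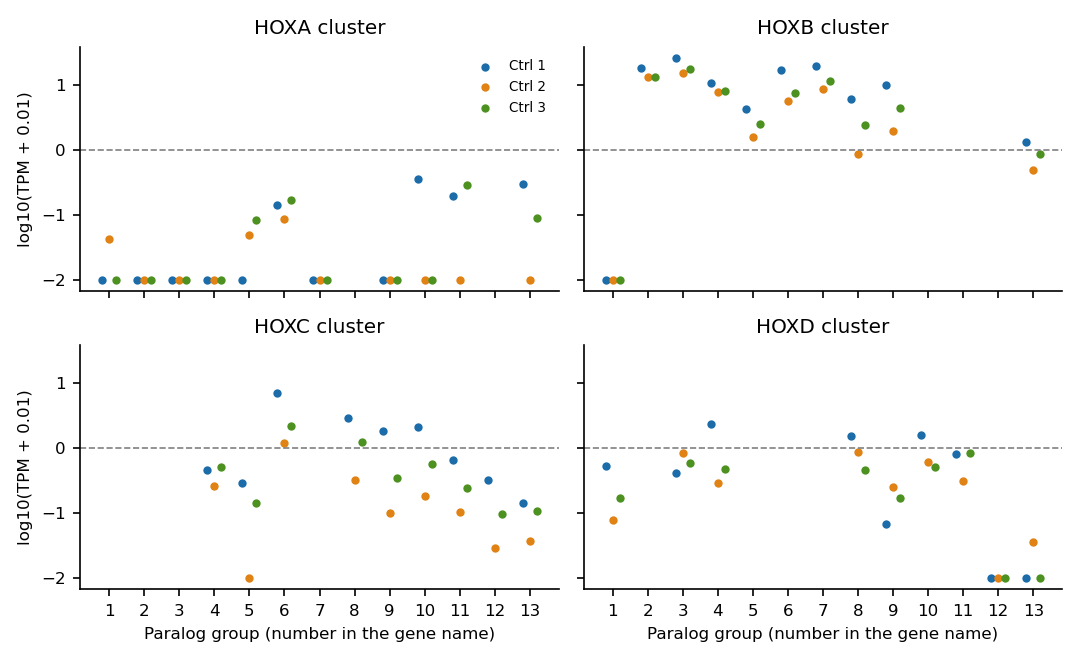
TPM of the 39 HOX genes in the 3 Ctrl libraries (colours), on a log10 scale with 0.01 added, by paralog group within each cluster. The dashed line is 1 TPM, and points at the bottom have a TPM of 0. HOXB2 to HOXB9 lie above the line in the mean, and every HOXA gene lies below it.

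On the ligand side of the contact that the study examines, all 8 ephrins were at 1 TPM or more in each library. EFNB1, the ephrin-B1 gene, was at 8.47, 6.31 and 6.37 TPM in replicates 1, 2 and 3, with a mean of 7.05 ± 1.23 (SD, n = 3). EFNB2 was at 10.9 ± 2.79 TPM and EFNB3 at 9.07 ± 0.679 TPM, so the levels of the 3 transmembrane B ephrins were close, with EFNB1 the lowest in the mean. The highest ephrins were the membrane-anchored EFNA5 (17.7 ± 4.11 TPM) and EFNA4 (14.7 ± 3.32 TPM), and the lowest was EFNA2 (2.38 ± 0.650 TPM).

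Of 14 Eph receptors 7 (50%) reached 1 TPM and 3 (21.4%) reached 10 TPM, against 65.6% and 43.7% of all protein-coding genes. EPHA2 was at 140, 87.5 and 92.1 TPM, EPHB4 at 62.5, 48.0 and 49.1 TPM, and EPHB2, the receptor whose Fc fusion the study applied to other cells, at 22.1, 23.1 and 18.2 TPM. These 3 receptors kept that order in each library. EPHA4 was next at 3.46 ± 0.476 TPM, and EPHA1, EPHB3 and EPHA5 followed near 1 TPM in the mean, each below 1 TPM in at least 1 library. Of the EPHA1 level 4.03% lay in coding transcripts. EPHA6, EPHB1, EPHA3, EPHA10, EPHA7, EPHA8 and EPHB6 were below 1 TPM in the mean.

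Because the cells were given Fc protein, receptors for the Fc part of IgG were read as well. Of 9 Fc receptors, FCGR2C, FCGR3A, FCGR3B and FCER1A had no counts, and FCGR1A had 1, 2 and 1 counts in replicates 1, 2 and 3. FCGR2B was at 0.174 ± 0.127 TPM, and FCGR2A at 1.16 ± 0.185 TPM with 9.70% in coding transcripts. The intracellular receptors were higher, with FCGRT, the neonatal Fc receptor, at 107, 47.7 and 58.2 TPM and TRIM21 at 14.8 ± 1.89 TPM. For HIV entry, CD4 was at 3.07, 2.94 and 2.85 TPM, of which 33.3% lay in coding transcripts. Of the co-receptors, CXCR4 had 3, 1 and 1 counts, while CCR3 and CXCR6 were at 0.130 and 0.553 TPM.

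**Figure D4:**
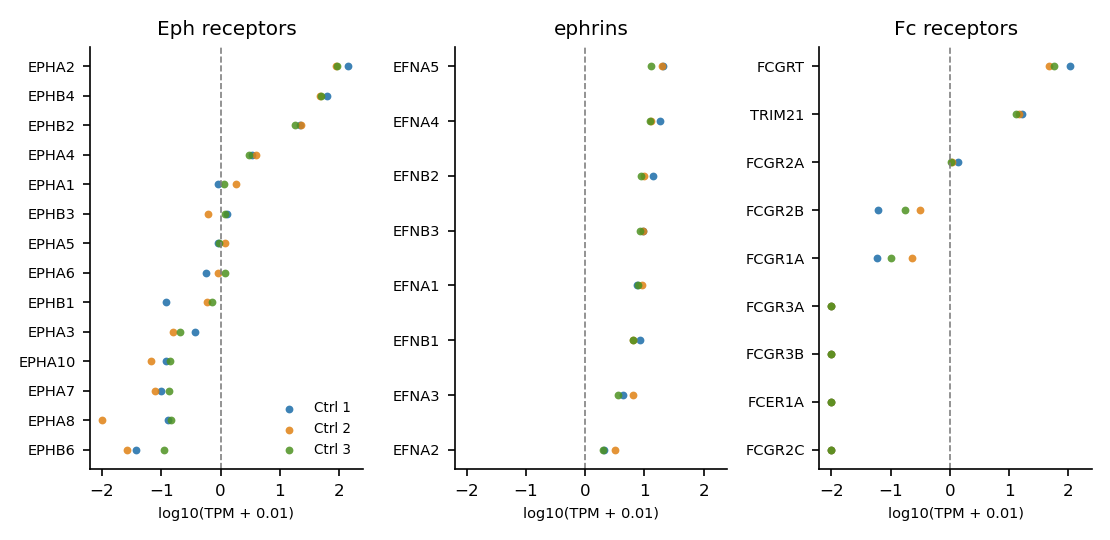
TPM of Eph receptors, ephrins and Fc receptors in the 3 Ctrl libraries (colours), on a log10 scale with 0.01 added. The dashed line is 1 TPM, points at the left edge have a TPM of 0, and the 8 ephrins lie between 1.97 and 20.4 TPM in all libraries.

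Receptors for soluble signals differed by family, and the shares below stand against 65.6% of all protein-coding genes at 1 TPM. Of 22 chemokine receptors 2 (9.09%) reached 1 TPM, CCR10 (2.68 ± 0.662 TPM) and CCR7 (1.07 ± 0.470 TPM), and CCR1, CCR2, CCR8, CXCR1, CX3CR1 and ACKR1 were among those without counts. Of 28 cytokine receptors 23 (82.1%) reached it, led by TNFRSF12A, the TWEAK receptor, at 163 ± 12.6 TPM. IL6ST, the shared gp130 chain of the IL-6 family, was at 140, 85.2 and 79.7 TPM with 33.7% in coding transcripts, and OSMR, the oncostatin M receptor, at 66.8 ± 8.77 TPM. All 16 genes of interferon receptors and signaling passed 1 TPM, with IFNAR1 at 34.7 ± 5.28 TPM and JAK1 at 48.1 ± 5.46 TPM. Of 37 growth factor receptors 30 (81.1%) reached 1 TPM, and AXL, a TAM family receptor of GAS6, was the highest at 398 ± 33.2 TPM. PDGFRB came next as above, then MET (67.7 ± 13.9 TPM) and ERBB2 (55.8 ± 10.4 TPM). EGFR was lower in the list, at 23.5 ± 2.30 TPM.

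Among innate sensors, 9 of 16 genes of the Toll-like receptor list (56.25%) and 11 of 12 cytosolic nucleic acid sensors (91.7%) reached 1 TPM. Over all protein-coding genes the share was 65.6%, so the Toll-like receptor list lay below it. TLR3, the receptor for double-stranded RNA, was at 10.01, 2.78 and 4.22 TPM, and TLR4, the receptor for lipopolysaccharide, at 9.08, 2.61 and 3.70 TPM. Both were highest in replicate 1 and lowest in replicate 2. The RNA sensors RIGI (28.6, 10.9 and 15.5 TPM) and IFIH1 (16.6, 3.92 and 7.602 TPM) had that order too, while MAVS, their shared adaptor, was at 37.0 ± 5.19 TPM. MYD88, the adaptor of most Toll-like receptors, was at 0.712, 4.52 and 3.00 TPM. Of 26 integrin genes 19 (73.1%) reached 1 TPM, near the share of all protein-coding genes. ITGA3 (284 ± 43.3 TPM) and ITGB1 (274 ± 18.6 TPM) were the highest. The list of purinergic and transmitter receptors had 16 of 29 genes (55.2%) at 1 TPM, below that share. It was led by the adenosine receptor ADORA2B at 27.1 ± 4.58 TPM and the ATP-gated channel P2RX4 at 20.5 ± 6.08 TPM.

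Secreted products were dominated by matrix. Of 41 genes for secreted matrix and matricellular proteins 35 (85.4%) reached 1 TPM and 16 reached 100 TPM, among them FSTL1 (663 ± 63.7 TPM), THBS1 (810, 353 and 453 TPM), LAMB1 (232 ± 26.2 TPM) and LOXL2 (226 ± 31.6 TPM). Growth factors at 1 TPM numbered 36 of 48 (75%), and over all protein-coding genes the share was 65.6%. CCN1, a matricellular target of YAP1, was at 347, 641 and 448 TPM, DKK3 at 243 ± 16.05 TPM, and MDK (midkine), a heparin-binding growth factor, at 336, 127 and 176 TPM. HGF and VEGFD had no counts. The plasminogen activator PLAU was at 119 ± 10.9 TPM and TIMP2, an inhibitor of metalloproteinases, at 298 ± 40.03 TPM. Of 22 complement genes 11 (50%) reached 1 TPM, and the 2 above 100 TPM, CD59 (256 ± 22.4 TPM) and CD46 (127 ± 16.6 TPM), encode inhibitors on the cell surface.

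Cytokines and chemokines were fewer. Of 42 interleukin and cytokine genes 15 (35.7%) reached 1 TPM, against 65.6% of all protein-coding genes. MIF was at 1222 ± 131 TPM, and below it came IL11 (46.5, 84.9 and 61.3 TPM), LIF (21.6 ± 4.10 TPM), CLCF1 (18.1 ± 3.15 TPM) and CSF1, the ligand of CSF1R, at 15.7 ± 5.14 TPM. IL11 and LIF signal through IL6ST. IL2, IL17A, IFNA1, IFNG, IFNK and IFNE had no counts. Of 39 chemokines 13 (33.3%) reached 1 TPM and 14 had no counts. CCL5 was at 42.1, 4.53 and 16.7 TPM, the widest spread among the 3 chemokines above 10 TPM, the others being CXCL1 (21.7, 8.59 and 10.4 TPM) and CXCL16 (16.6, 7.09 and 9.54 TPM).

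Because secreted factors were also measured in the study, their genes were read in the Ctrl libraries. The list had 13 genes. IL6 was at 9.53, 9.46 and 8.81 TPM, CCL2 at 8.49, 10.2 and 10.5 TPM, IL1B at 8.24, 5.45 and 5.93 TPM, and CXCL1 as above. These 4 (30.8%) reached 1 TPM in the mean, against 65.6% of all protein-coding genes, and they also did so in each library. MMP9 was at 0.687 ± 0.407 TPM, CXCL5 at 0.623 ± 0.0247 TPM and CSF2 (GM-CSF) at 0.311 ± 0.113 TPM, the last from 2, 4 and 2 counts. IFNB1 had 2, 1 and 1 counts, CCL11 0, 2 and 1 counts, CXCL11 1, 1 and 2 counts and VCAM1 4, 2 and 2 counts, all near or below the floor of 3. CXCL10 had no counts. TNF was listed at 0.00114 TPM and also lies in the major histocompatibility complex, so its level is uncertain.

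A group of interferon-stimulated genes was high in these cells without added interferon, and its level differed between the 3 libraries. Of 30 such genes 29 (96.7%) reached 1 TPM and 27 (90%) reached 10 TPM, against 65.6% and 43.7% of all protein-coding genes. IFI6, an interferon-induced mitochondrial protein, was at 1366 TPM in replicate 1, 257 TPM in replicate 2 and 612 TPM in replicate 3. ISG15, a ubiquitin-like modifier, was at 394, 127 and 195 TPM, and OAS1, an activator of RNase L, at 138, 28.7 and 55.0 TPM. Replicate 1 was the highest and replicate 2 the lowest for 28 of the 30 genes, against 20.3% of all genes at 10 TPM or more (35.01% with TPM scaled without the rRNA-like genes).

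The largest differences in this group were in RSAD2 (6.33, 0.455 and 2.06 TPM), OASL (25.8, 2.58 and 10.3 TPM) and IFI27 (46.6, 4.87 and 18.2 TPM). With 9 equal transcripts that were paired with no gene, the mean of IFI27 was 40.7 TPM instead of 23.2. IFITM2 (45.5, 41.8 and 39.1 TPM) was nearly level, though the IFITM genes are near-identical and their shares uncertain. The highest library was at least 2-fold above the lowest for 24 of the 27 genes at 10 TPM or more (88.9%), against 329 of all 8889 genes at that level (3.7%). With TPM scaled without the rRNA-like genes these were 24 of 27 and 282 of 8869 (3.18%). On that scale the median ratio over the group was 3.21 for replicate 1 over 2 and 1.92 for replicate 3 over 2. Without replicate 1, 42 genes at 10 TPM or more differed 2-fold, and without replicate 2 there were 149. Replicate 1 was also the library with the fewest counts and the lowest rRNA-like share, and the part of either in these differences was not tested. The deposited names give each Ctrl library a different experiment number, so differences between libraries and between experiments cannot be told apart.

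**Figure D5:**
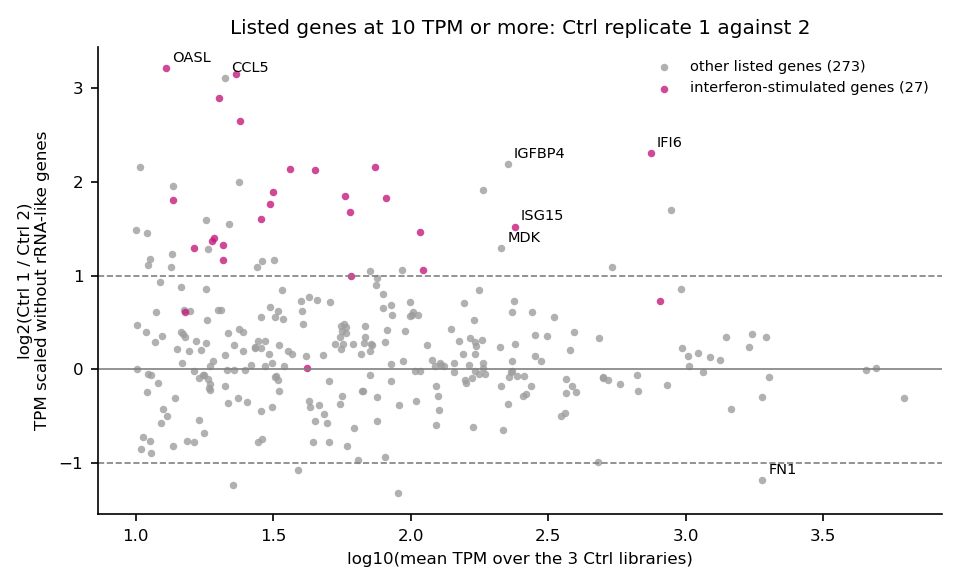
Ratio of Ctrl replicate 1 to Ctrl replicate 2 (log2, TPM scaled without rRNA-like genes) against the mean level (log10 TPM) for the listed genes at 10 TPM or more, 1 point per gene. The 27 interferon-stimulated genes lie at or above 0, 24 of them at or above the upper dashed line at a 2-fold difference, as do 23 of the 273 other genes, while 4 of those lie below the lower line.

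Genes outside this group moved with the same order of libraries. B2M, the light chain of class I molecules, was at 1554, 445 and 650 TPM, with 5.10% in coding transcripts and further equal transcripts paired with no gene. The insulin-like growth factor binding proteins IGFBP4 (415, 84.3 and 177 TPM) and IGFBP7 (321, 78.7 and 148 TPM), both secreted, were also highest in replicate 1. In the opposite direction TMEM158 (3.79, 65.6 and 34.7 TPM) and TENM2, a teneurin adhesion protein (4.46, 44.5 and 18.7 TPM), were lowest in replicate 1, as were FN1 and the lysyl oxidase LOX (55.2, 128 and 86.8 TPM). EEF2, an elongation factor, had the same order (1188, 2574 and 1711 TPM). H2AC18 had the largest ratio among genes at 10 TPM or more (3.25, 177 and 20.2 TPM), but replication-dependent histone genes have near-identical copies between which counts can be split. At the other end, 7739 of 8869 genes at 10 TPM or more (87.3%) had a coefficient of variation under 25% over the 3 libraries.

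The promoters of the interferon-stimulated genes are shown because these genes moved together between the libraries. Sequences are from RefSeq on GRCh38.p14, and the motif searched was that of the interferon-stimulated response element, spelled GAAANNGAAA and, on the other strand, TTTCNNTTTC, where N is any base, with overlaps allowed. In the 300 bases from 250 before to 50 after the start, 14 of the 16 genes of the group that have 1 promoter in the table held it, as did 370 of 11330 protein-coding genes with 1 promoter (3.27%). IFI35 and OAS1 were the 2 without it. The lines give the 150 bases before the start, 5′ to 3′ on the gene's strand, with the motif in capitals.
IFI6, chr1:27672193-27672342, minus strand: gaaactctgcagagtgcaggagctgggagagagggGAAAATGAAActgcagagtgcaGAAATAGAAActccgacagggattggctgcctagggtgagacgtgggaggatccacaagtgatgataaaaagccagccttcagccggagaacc
ISG15, chr1:1013347-1013496, plus strand: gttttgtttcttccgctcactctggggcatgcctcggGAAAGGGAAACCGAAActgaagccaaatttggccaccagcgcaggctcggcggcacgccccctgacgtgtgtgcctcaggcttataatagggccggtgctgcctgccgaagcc
OAS3, chr12:112938324-112938473, plus strand: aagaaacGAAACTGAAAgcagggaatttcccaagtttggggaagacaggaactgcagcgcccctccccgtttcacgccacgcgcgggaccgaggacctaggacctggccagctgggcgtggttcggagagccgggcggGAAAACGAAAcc
IFIT1, chr10:89392473-89392622, plus strand: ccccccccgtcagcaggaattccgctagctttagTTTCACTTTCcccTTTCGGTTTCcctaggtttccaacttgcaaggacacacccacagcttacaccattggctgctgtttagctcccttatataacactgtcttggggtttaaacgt
DDX60, chr4:168318753-168318902, minus strand: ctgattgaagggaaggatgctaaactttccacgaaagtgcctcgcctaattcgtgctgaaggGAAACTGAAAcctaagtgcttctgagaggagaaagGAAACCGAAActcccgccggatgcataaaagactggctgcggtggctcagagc

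The motif stood 115 bases before the start in IFI6, 113 in ISG15, 143 in OAS3, 116 in IFIT1 and 88 in DDX60 at its match farthest from the start within the bases shown. The TPM of OAS3 were 142, 37.0 and 64.1, those of IFIT1 46.7, 14.2 and 25.0 and those of DDX60 32.9, 12.2 and 17.4 in replicates 1, 2 and 3, so each had the order of IFI6. A match is a description of the letters and does not show that a factor bound there.

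Across all protein-coding genes with 1 promoter, the number of CG dinucleotides in the 300 bases was smaller in genes of lower level. The median was 28 for 605 genes at 100 TPM or more, 27 for 6806 genes between 1 and 100 TPM, 8 for 2611 genes above 0 and below 1 TPM and 4 for 1308 genes without counts. The letters TATAAA, on either strand, stood in 13.2%, 4.67%, 16.3% and 28.4% of these promoters, and in 10.5% of all 11330. FN1, VIM and TYROBP are shown as 2 of the highest identity genes and 1 silent microglial gene, again as the 150 bases before the start, with CG in capitals.
FN1, chr2:215436069-215436218, minus strand: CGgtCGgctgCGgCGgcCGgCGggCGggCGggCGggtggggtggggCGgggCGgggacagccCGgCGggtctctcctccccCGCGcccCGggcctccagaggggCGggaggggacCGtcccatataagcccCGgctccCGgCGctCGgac
VIM, chr10:17228091-17228240, plus strand: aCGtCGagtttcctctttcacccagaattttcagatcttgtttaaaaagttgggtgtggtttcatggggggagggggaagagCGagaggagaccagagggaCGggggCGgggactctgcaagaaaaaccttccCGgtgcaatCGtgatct
TYROBP, chr19:35908296-35908445, minus strand: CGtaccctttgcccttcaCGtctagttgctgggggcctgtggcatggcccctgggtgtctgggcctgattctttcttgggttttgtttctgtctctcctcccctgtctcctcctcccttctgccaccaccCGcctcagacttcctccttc

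The full window of 300 bases held 38 CG dinucleotides in FN1, 10 in VIM and 8 in TYROBP. VIM thus had few for a gene at its level, and TYROBP, without a count in any library, had more than the median of genes without counts.

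Families of genes used in specialised tissues differed in how many members were silent, against 10.2% of all protein-coding genes without a count. Of 400 olfactory receptor genes 255 (63.8%) had no count, 94 keratin-associated protein genes had 78 (83.0%) and 40 beta-defensin genes had 36 (90%). Of 27 taste receptor genes 11 (40.7%) had no count, and none reached 1 TPM. The 66 protocadherins, adhesion proteins of neurons and other cells, had 5 (7.58%), and PCDHGC3 was at 60.9, 78.3 and 57.5 TPM. Among olfactory receptors 11 reached 1 TPM, the highest being OR4F17 at 6.92 TPM with 0.342% in coding transcripts. Of 29 tissue-restricted genes 3 reached 1 TPM and 12 had no counts, among them ALB, INS and GCG. The exception was HBA2, an alpha-globin gene, at 44.3, 70.4 and 37.2 TPM, with HBA1 at 3.54 ± 1.89 TPM and HBB at 0.728 ± 0.586 TPM. HBA1 and HBA2 have the same coding sequence, so the split between them is uncertain.

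For a few genes the level lay in transcripts that hold sequence of abundant non-coding RNAs. PLCG2, a phospholipase known from B cells and microglia, was at 944, 931 and 855 TPM, rank 88 of the protein-coding genes, nearly all in 1 transcript of 8666 bases. Of the stretches of 31 bases in that transcript, 89 were identical with 7SK RNA, an abundant nuclear RNA. WDR74 (151 ± 12.8 TPM) had 105 such stretches in common with U2 RNA of the spliceosome in a transcript of 548 bases, which held 112 TPM. PLLP (182 ± 49.1 TPM), PPEF2 (114 ± 12.98 TPM) and NRSN1 (83.7 ± 9.38 TPM) shared 11, 9 and 10 stretches with 7SL RNA of the signal recognition particle. Which reads fell on these stretches was not analysed here.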

How the data were processed

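RNA of the 3 Ctrl replicates of HMC3 was sequenced after rRNA depletion (paired ends, 100 bases). The authors ran kallisto, version not given in the sources used here, on Ensembl cDNA of GRCh38 and deposited a table per library. The estimated counts are as the authors deposited them, without normalization. The TPM are as the authors deposited them, made by kallisto from counts and effective lengths. Of 188753 transcripts, 167067 (88.5%) were paired by ID with GENCODE 44, and the other 21686 were left out of gene levels. TPM were summed per gene. Errors are the SD of 3 libraries. No test was run, since 1 group was described. Named were the 30 highest protein-coding genes, members of the microglia, HIV entry, Fc receptor, Eph, ephrin, HOX and paper-named secreted lists, the 8 highest and the silent members of other lists (37 lists, 783 genes), the 10 most variable genes, the 10 highest genes in no list and the 5 highest of each other biotype. Some genes under this rule are not reported here. Genes named beyond this rule were chosen after their values were seen. The lists and members were chosen with earlier results of these data known. Alternatives were other scalings, thresholds, summaries and left-out libraries. The floors cover counting error only. Sums and counts were tested on simulated data. Scripts ran in Python 3.11.15 with pandas 2.3.3 and numpy 2.4.6, and figures were drawn with matplotlib 3.10.9.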

Additional observations from a re-analysis of the deposited data

Results flagged for a closer look

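Transcripts that were paired with no gene, and so entered no gene level, held between 4.04% and 4.57% of the estimated counts of a Ctrl library. The signal lies outside the gene levels reported and is above the limit that a count of 0 allows. Of these 21686 transcripts, 511 reached 10 TPM and 28 reached 100 TPM. With the length and the TPM of a paired transcript in each library there were 2509, which belong to 588 genes, ACTB, ACTN4, IRF9, GREM1 and FOXC2 among them, and the listed levels of ACTN4 (165 TPM), IRF9 (45.8 TPM), GREM1 (22.8 TPM) and FOXC2 (16.3 TPM) become 329, 91.6, 45.6 and 32.6 TPM with them. PSMB8, a subunit of the immunoproteasome, goes from 10.98 to 58.1 TPM. HLA-C and HLA-DRB1 had no counts among paired transcripts, and their levels are not read here for this reason.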

How the results depend on the processing

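No paired analysis was possible because the results come from no test and 1 group was described. As CPM of estimated counts, in place of TPM, the shares of the 10, 100 and 1000 leading genes were 6.17%, 16.6% and 44.7%. On that scale rRNA pseudogenes held 0.541%, rRNA-like genes 2.35%, mitochondrially encoded mRNAs 0.547%, ribosomal proteins 3.46%, histones 0.537%, other pseudogenes 0.347% and other protein-coding genes 88.2%. With the most abundant transcript of each gene alone, the 1000 leading genes held 57.6%, ribosomal proteins 7.62% and other protein-coding genes 32.7%. With at least 10 counts required, other pseudogenes held 0.686%. The next 2 alternatives were chosen after seeing the data. Scaled without rRNA-like genes, the leading genes held 5.35%, 23.1% and 52.2%, mitochondrially encoded mRNAs 1.15%, ribosomal proteins 13.81%, histones 2.95%, other pseudogenes 1.19% and other protein-coding genes 76.0%. With only protein-coding transcripts, the leading genes held 3.54%, 14.7% and 32.1%, other protein-coding genes 42.7%, and rRNA pseudogenes, rRNA-like genes and other pseudogenes 0%. The number of genes that differed 2-fold between libraries was 42 to 312 when a replicate was left out, and 2306 among genes at 1 TPM or more. The mean Pearson r of 0.967 was 0.930 with a pseudocount of 0.1 and 0.987 over all paired genes. The low counts of many markers limit their levels to a comparison with the floor of 3 counts.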
